A study of Mus musculus with 16 samples.

Results

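Amino acid transporter genes were read in 9 mouse lung tumors labelled Max -/- and 7 labelled wild type for Max. The genes described are 10 listed by symbol (Slc3a2, Slc7a5, Slc7a6, Slc7a11, Slc7a1, Slc38a1, Slc38a2, Slc1a4, Slc1a5 and Slc6a9), of 23284 symbols counted in each tumor. All 10 had a row in the 16 deposited count tables, and all 10 passed the filter on low counts. The comparison asks how tumors differ when Max has been deleted. Both groups come from RP mice on a mixed 129/SvJ and C57BL/6 background, and in both the conditional alleles were recombined by Ad.CMV.Cre given into the trachea. The letters RP commonly denote conditional Rb1 with Trp53, the mouse model of small cell lung cancer, although the labels do not spell them out. CMV is a broadly active promoter, so the virus does not limit recombination to 1 airway cell type, and a whole tumor also holds host cells that keep Max. The ages of the mice, and whether any tumors shared a mouse, are not given in the labels, so the tests below weigh differences against tumor-to-tumor spread only, which may be technical in part.

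Amino acid carriers bring in the building blocks of protein, nucleotides and glutathione, and many of them exchange 1 amino acid for another. Slc3a2 encodes 4F2hc (CD98), a heavy chain that a family of light chains needs to reach the cell surface. Its light chains include LAT1 (Slc7a5), which takes up leucine and other large neutral amino acids that activate the kinase mTORC1. LAT1 and the glutamine carrier ASCT2 (Slc1a5) are known as genes that MYC proteins raise in tumors, and MAX is the DNA-binding partner of MYC proteins. Several carriers, among them Slc7a11, are also induced by ATF4, the transcription factor of the response to amino acid shortage.

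Start regions of these genes are shown because MYC with MAX binds the E-box and ATF4 the amino acid response element. Motifs were searched on both strands. RefSeq windows of 250 bases before a start (build GRCm38.p6) matched 7 of the 10 genes, with 11 windows in all, some of them alternative starts of 1 gene. Slc7a5, Slc38a1 and Slc1a5 had no window, so their start regions were not searched for any motif. The letters CACGTG (E-box) were in 0 of the 11 windows, against 6.02% of all 32851 windows of that length in the table. The letters TGATGNAA (amino acid response element) were in 1 window, that of Slc7a11, against 3.45% of all windows. Another motif, TGACNNNGC, the core of the antioxidant response element that NRF2 binds, was in 5 of the 11 windows, which belong to Slc7a1, Slc7a6, Slc38a2 and Slc6a9, against 10.2% of all windows. The window of Slc7a11 lies at chr3:50443614-50443863 on the minus strand and that of Slc3a2 at chr19:8713898-8714147 on the minus strand, and together they give the light and the heavy chain of the cystine carrier xCT. Each is printed 5′ to 3′ with the amino acid response element in capitals.
Slc7a11: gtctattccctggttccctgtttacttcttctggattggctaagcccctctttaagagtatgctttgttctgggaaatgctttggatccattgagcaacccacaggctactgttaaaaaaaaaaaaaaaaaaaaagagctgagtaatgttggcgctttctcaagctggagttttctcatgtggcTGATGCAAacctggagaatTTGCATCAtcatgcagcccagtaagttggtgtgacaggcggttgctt
Slc3a2: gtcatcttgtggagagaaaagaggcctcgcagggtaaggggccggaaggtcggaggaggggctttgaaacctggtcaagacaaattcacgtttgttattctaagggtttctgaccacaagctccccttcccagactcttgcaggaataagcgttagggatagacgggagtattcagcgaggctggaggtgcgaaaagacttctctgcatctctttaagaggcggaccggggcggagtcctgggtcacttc
The element stands in Slc7a11 on both strands, once beginning 66 and once 47 bases before the start. A match describes these letters and is no evidence of binding. GENCODE M21 places Slc3a2 at chr19:8706882-8723369, so its window lies inside the gene. The region before its outer start was not searched for any motif.

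Reads in genes numbered 8664862 to 15114271 in Max null tumors and 9150127 to 13222725 in Max wild-type tumors, and the 10 genes had between 22 and 9673 reads in a tumor, so counting error was large only for Slc7a11. Max itself measured 64.2 to 83.5 CPM (the count per megaread in genes, with TMM factors) in null tumors and 52.4 to 75.9 CPM in wild-type tumors (log2 difference 0.18 ± 0.11, SE, edgeR adjusted p = 0.281). That count covers the whole gene and does not check the deletion, so every direction below is between groups as labelled. Multiply aligned reads took 9.17% to 11.8% of each null library and 12.3% to 22.2% of each wild-type library, highest in wild-type tumors 2, 4 and 7. Neuroendocrine markers (7 of 7 found) were present in every tumor, with summed levels of 3183 to 6368 CPM in null and 3515 to 26217 CPM in wild-type tumors. The highest of these sums was mostly Calca, which reached 23460 CPM in a wild-type tumor. In total 2378 of 14825 tested genes differed at an adjusted p under 0.05 (16%; 7.40% higher and 8.64% lower in null tumors). That total was 1471 without wild-type tumor 4 and 1555 without wild-type tumor 7.

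Of the 10 transporter genes 1 passed the test, Slc7a5, which was higher in Max null tumors. The other 9 did not pass, 7 with a fitted difference above 0 and 2 below. The share called, 10%, lies below the 16% of all tested genes. At an unadjusted p under 0.05 the count was 2 higher (Slc7a5 and Slc3a2) and 0 lower with edgeR's quasi-likelihood test. At that cutoff 2209 of all 14825 tested genes were higher and 2655 lower. DESeq2 and limma-voom each called 1 of the 10 higher and 0 lower at an adjusted p under 0.05. Over all tested genes DESeq2 called 1543 higher and 1792 lower, and limma-voom 1294 higher and 1146 lower. The median log2 difference of the 10 genes was 0.20, against -0.03 over all tested genes. The groups overlapped in all 10 genes, while they did not overlap in 1.56% of all tested genes.

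**Figure D1:**
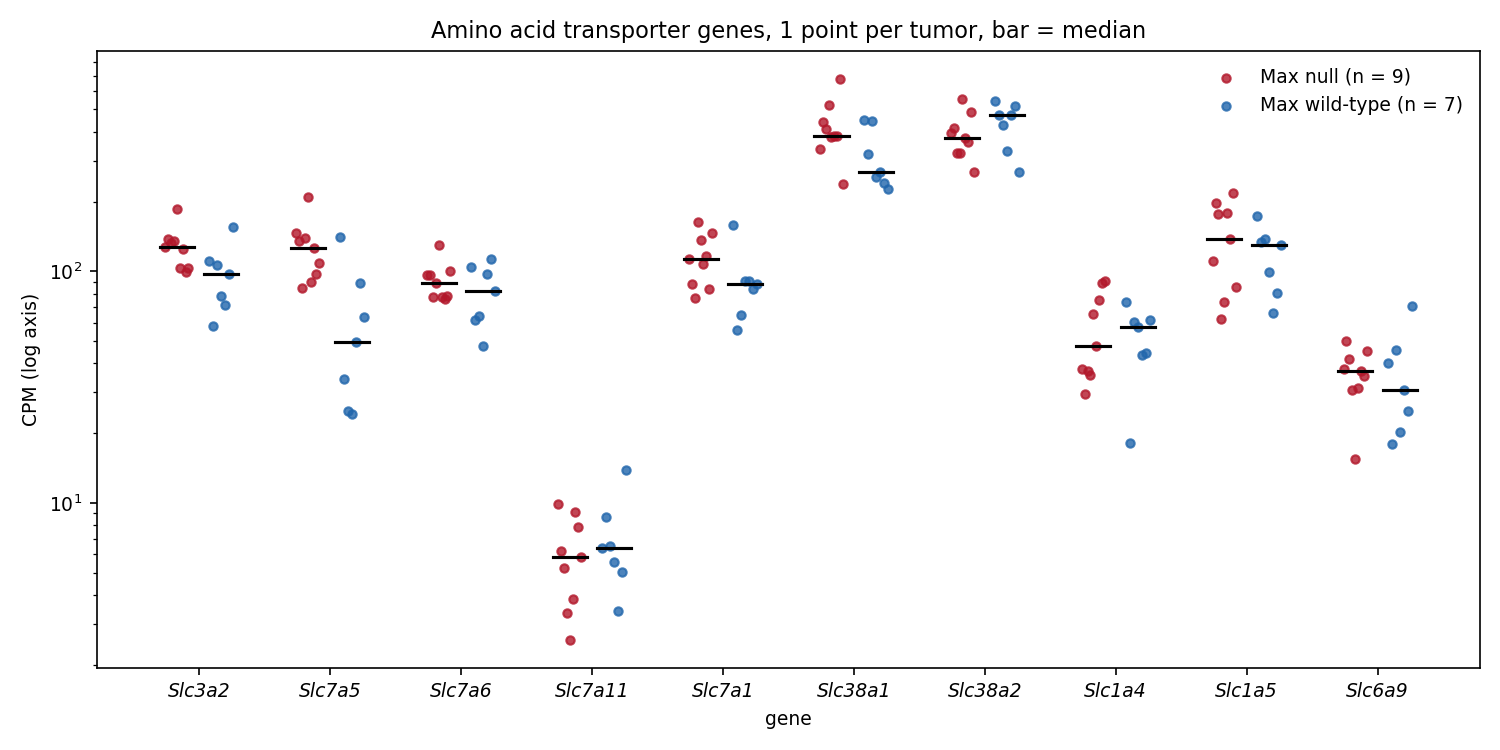
CPM (log axis) of the 10 transporter genes, with 1 point per tumor, Max null tumors in red (n = 9) on the left and Max wild-type tumors in blue (n = 7) on the right of each gene, and bars at the median. The null points of Slc7a5 all lie above the wild-type median of 49.4 CPM, as those of Slc3a2 lie above theirs of 97.0 CPM, and the groups overlap in all 10 genes.

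Slc7a5, the LAT1 light chain, measured 146, 135, 85.1, 139, 210, 89.8, 126, 97.0 and 109 CPM in null tumors 1 to 9, against 140, 34.3, 24.9, 24.2, 49.4, 88.7 and 63.4 CPM in wild-type tumors 1 to 7. All 9 null tumors lay above the wild-type median, and 2 of them above the highest wild-type tumor, number 1. The log2 difference was 1.06 ± 0.33 (SE), a 2.08-fold higher fitted level in null tumors (edgeR adjusted p = 0.0393). The highest null tumor was 2.47 times the lowest null tumor, and the highest wild-type tumor 5.80 times the lowest wild-type tumor. The coefficients of variation were 30.5% (null) and 69.1% (wild-type), set side by side without a test. The call was narrow. The difference was not called without null tumor 1, 2, 4, 5 or 7 (log2 differences 1.03, 1.04, 1.04, 0.93 and 1.06) or without wild-type tumor 2, 3, 4, 5 or 7 (0.96, 0.92, 0.92, 1.03 and 1.06), where adjusted p ranged from 0.0551 to 0.0776. It was 1.42 without wild-type tumor 1 (adjusted p = 0.00476).

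Wild-type tumors 2, 4 and 7, with the most multiply aligned reads, had 34.3, 24.2 and 63.4 CPM of Slc7a5, and the other wild-type tumors had 24.9 to 140 CPM. Without those 3 tumors the log2 difference was 0.74 ± 0.36 (unadjusted p = 0.0625, adjusted p = 0.282). When that share entered the fit as a covariate the difference was 0.68 ± 0.48 (adjusted p = 0.554), and since no null library had as high a share as any wild-type one, share and genotype cannot be told apart. A few markers of other cell types also passed the comparison, which 16% of all tested genes passed. Of 6 macrophage markers Cd68 and C1qa fell and 4 did not pass, with summed levels of 79.2 to 166 CPM in null and 122 to 238 CPM in wild-type tumors. Of their 6 fitted differences 1 was above 0 and 5 below. Of 4 neutrophil markers Cxcr2 fell and 3 did not pass, with sums of 15.3 to 55.6 CPM in null and 35.3 to 98.2 CPM in wild-type tumors. Cxcr2 itself had the highest mean of the 4, 12.1 CPM in null and 33.4 CPM in wild-type tumors, so these sums partly restate its call. Without wild-type tumors 2, 4 and 7, 0 macrophage and 0 neutrophil markers passed (2 and 1 lower at an unadjusted p under 0.05, against 1547 of all 15276 tested genes). Of 5 alveolar type 2 markers Abca3 rose and 4 did not pass, with sums of 574 to 2546 CPM in null and 129 to 1836 CPM in wild-type tumors. Their fitted differences were above 0 for 3 and below 0 for 2, Sftpc (-0.09) and Sftpa1 (-0.07). The part of these cells in the transporter values was not tested, and in whole tumors fewer cells of a type and less RNA per cell cannot be told apart. Of 5 endothelial and 5 fibroblast markers 0 passed in each list, with fibroblast sums of 198 to 832 CPM in null and 91.0 to 430.4 CPM in wild-type tumors. T cell markers (4 of 5 found) summed to 1.40 to 8.50 CPM in null and 1.76 to 18.1 CPM in wild-type tumors.

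**Figure D2:**
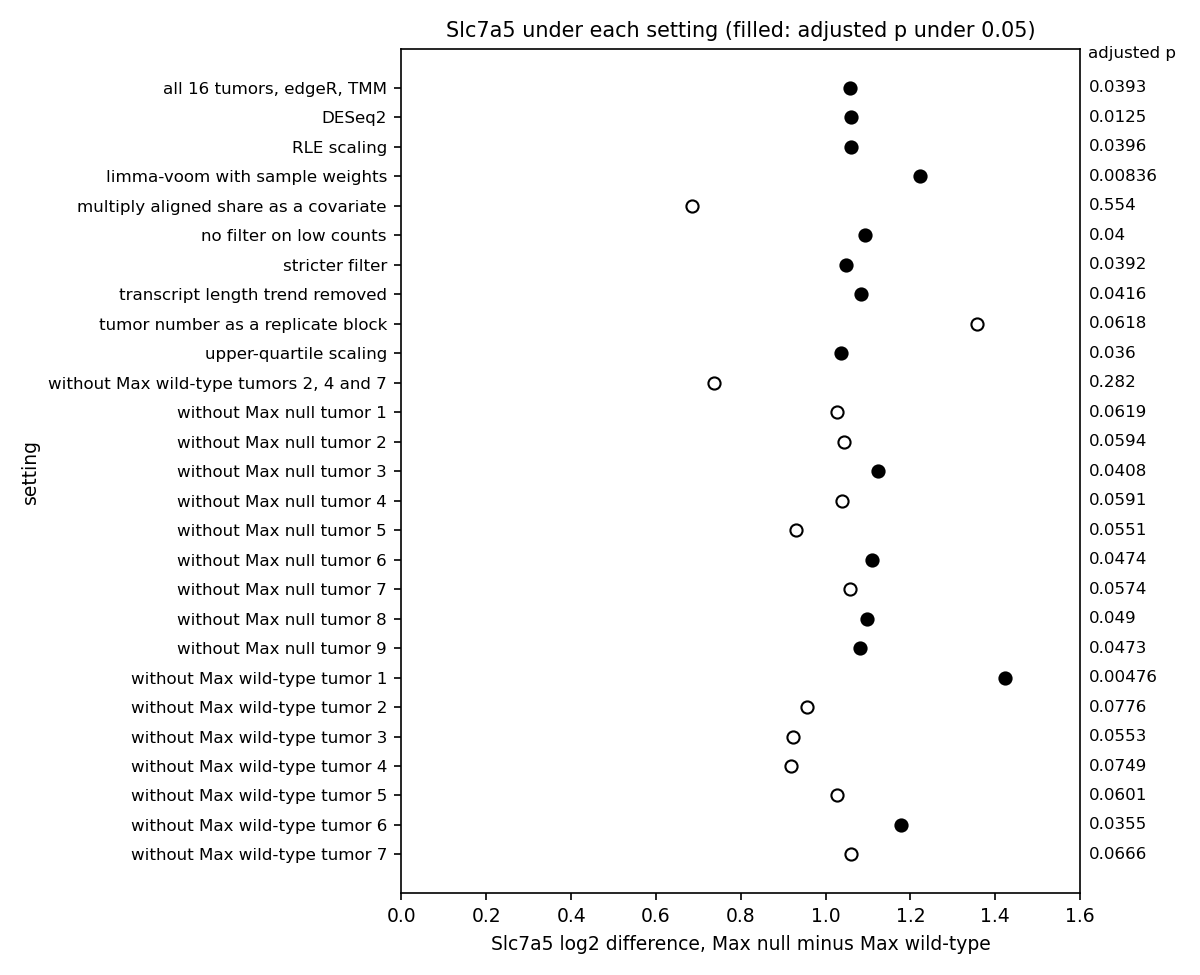
Fitted log2 difference of Slc7a5 (x axis, Max null minus Max wild-type) under each setting (y axis), with the adjusted p at the right and filled points where it is under 0.05. The difference is above 0 under every setting drawn, from 0.68 to 1.42, while the call is lost in several, among them 10 of the 16 fits without 1 tumor.

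Slc3a2, the shared heavy chain, ranged from 99.4 to 185 CPM in null tumors (median 128) and from 58.2 to 155 CPM in wild-type tumors (median 97.0). All 9 null tumors lay above the wild-type median, and 1 of them above the highest wild-type tumor, number 7. The log2 difference of 0.40 ± 0.19 did not pass adjustment (unadjusted p = 0.0479, adjusted p = 0.148), and was 0.54 (adjusted p = 0.0507) without wild-type tumor 7. Slc7a6, the y+LAT2 light chain that exchanges cationic for neutral amino acids, ranged from 76.2 to 130 CPM in null tumors (median 89.4) and from 47.4 to 113 CPM in wild-type tumors (median 82.4). Its log2 difference was 0.16 ± 0.18 (adjusted p = 0.559), and turned to -0.05 without wild-type tumors 2, 4 and 7. Slc7a11, the xCT light chain that brings in cystine for glutathione, was the lowest of the 10, at 2.56 to 9.85 CPM in null tumors (median 5.84) and 3.39 to 13.9 CPM in wild-type tumors (median 6.36). Its log2 difference was -0.23 ± 0.33 (adjusted p = 0.667), and it was 0.01 without wild-type tumor 7, the highest, and 0.13 with limma-voom, so it has no settled sign. The window printed above with 2 response element matches is that of a gene for which no difference was detected.

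Reads of Slc7a5 were set against those of its heavy chain in the same library, a ratio that no scaling affects. The ratio of Slc7a5 to Slc3a2 counts was 1.15, 0.987, 0.639, 1.03, 1.13, 0.868, 1.01, 0.976 and 1.06 in null tumors 1 to 9, against 1.27, 0.588, 0.234, 0.310, 0.689, 0.915 and 0.410 in wild-type tumors 1 to 7. Null tumors other than number 3 lay between 0.868 and 1.15, while wild-type tumors lay on both sides of that range. The log2 ratio averaged -0.04 ± 0.26 over null (SD, n = 9) and -0.88 ± 0.86 over wild-type tumors (SD, n = 7), a difference of 0.84 (two-sided exact permutation test over 11440 splits, p = 0.0128, adjusted over 3 ratios 0.0385). This passed in 4 of 16 fits without 1 tumor, with adjusted p from 0.0036 to 0.0875. Leaving out wild-type tumors 2, 4 and 7 together gave a difference of 0.56 that did not pass (adjusted p = 0.18). The calls lost were those without null tumor 1, 2, 4, 5, 6, 7, 8 or 9 (0.81, 0.83, 0.83, 0.81, 0.86, 0.83, 0.84 and 0.82) and without wild-type tumor 2, 3, 4 or 7 (0.86, 0.63, 0.70 and 0.77). The SDs of the Slc7a5 ratio were unequal, so this permutation test can respond to spread as well as to the mean. Slc7a5 itself was called in these same tumors, so its ratio partly restates that call. For the other light chains the differences of the mean log2 ratio were -0.24 for Slc7a6 (exact permutation p = 0.244, adjusted 0.244) and -0.68 for Slc7a11 (p = 0.0867, adjusted 0.13).

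**Figure D3:**
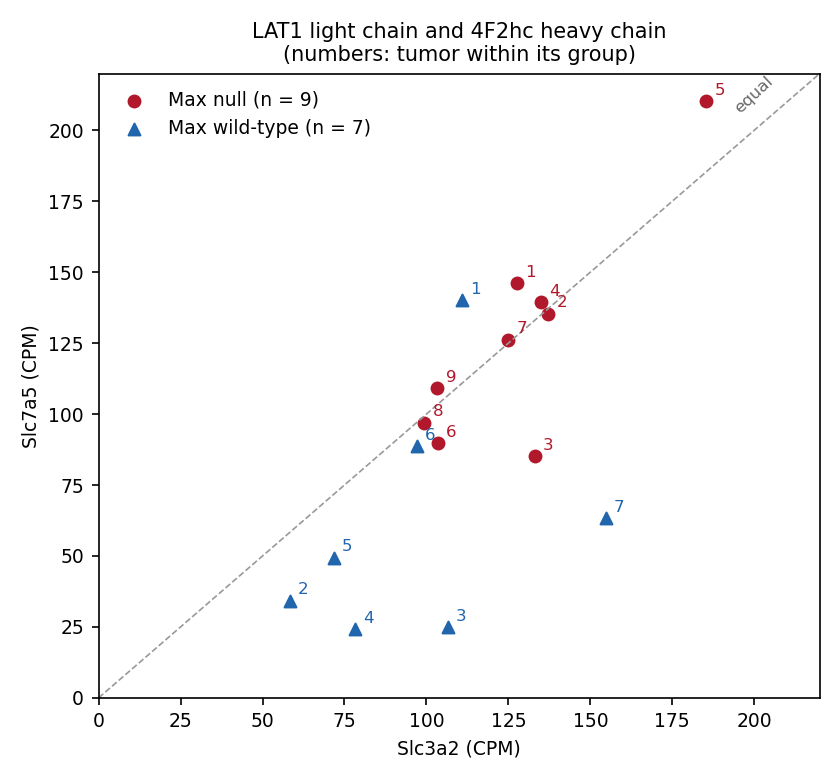
Slc7a5 (y axis, CPM) against Slc3a2 (x axis, CPM) in each tumor, with Max null tumors as red circles, Max wild-type tumors as blue triangles, tumor numbers beside the points and a dashed line of equal CPM. Of the 9 null tumors, 8 lie close to the line and number 3 below it, whereas wild-type tumors 2, 3, 4, 5 and 7 lie below it.

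Within null tumors log2 CPM of Slc7a5 and Slc3a2 gave Pearson's r = 0.79 (n = 9, exact permutation p = 0.00991, adjusted over 8 tests 0.0793) and Spearman's rho = 0.60 (exact permutation p = 0.0968, adjusted 0.484). Without tumors 5 and 8, the farthest in Slc3a2, r was 0.47. Leaving out the extremes also narrows the range of Slc3a2, so this cannot show whether the relation rests on those tumors. In the fits without 1 tumor r ranged from 0.54 to 0.96. Within wild-type tumors r was 0.42 (n = 7, exact permutation p = 0.344, adjusted 0.394) and rho 0.46 (exact permutation p = 0.302, adjusted 0.484), and without tumors 2 and 7 r was 0.41. Slc7a11 with Slc3a2, Slc7a6 with Slc3a2 and Slc38a1 with Slc38a2 did not pass either, with r from -0.48 to 0.67 and adjusted p from 0.212 to 0.459 by the same exact permutation test. Among all 45 pairs of the 10 genes, picked after the values were seen, Slc7a5 and Slc7a6 had the highest r over 16 tumors once each group's mean was removed (0.86). That pair gave r = 0.83 in null tumors (n = 9, exact permutation p = 0.00597; rho = 0.62, p = 0.0857) and r = 0.88 in wild-type tumors (n = 7, exact permutation p = 0.0111; rho = 0.89, p = 0.0123). Adjusted over the 90 tests of all pairs in both groups, r gave 0.2 in each group and rho 0.861 (null) and 0.369 (wild-type), and r was 0.78 and 0.85 without the 2 tumors farthest in Slc7a6. The smallest p of those 90 tests belonged to Slc7a1 with Slc1a5 in null tumors, where r was negative. It was -0.92 (n = 9, exact permutation p = 0.000719, adjusted 0.0647), while wild-type tumors gave r = 0.16 (n = 7, exact permutation p = 0.741). Among all tested genes of at least 1 CPM, the 3 with patterns most like Slc7a5 were taken by r over 16 tumors with each group's mean removed. They were Adcy3, an adenylyl cyclase (0.89), Ncdn, neurochondrin (0.88), and 1 gene model without a name. None of these 3 passed the comparison of the groups (adjusted p from 0.143 to 0.569).

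Slc7a1, the CAT1 carrier of arginine and lysine, ranged from 77.0 to 163 CPM in null tumors (median 113) and from 55.8 to 158 CPM in wild-type tumors (median 88.5). The groups overlapped over nearly the whole range, and the log2 difference was 0.34 ± 0.21 (adjusted p = 0.267). Wild-type tumor 1 alone held the high value, the other 6 lying at or below 91.2 CPM, and without it the log2 difference was 0.54 and called (adjusted p = 0.048). With a trend on transcript length removed from each library it was 0.066 (adjusted p = 0.844).

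Slc38a1 and Slc38a2 encode SNAT1 and SNAT2, sodium-coupled carriers that load cells with glutamine, alanine and other small neutral amino acids. Slc38a1 ranged from 237 to 678 CPM in null tumors (median 385) and from 227 to 450.5 CPM in wild-type tumors (median 267). Of the 9 null tumors, 8 lay above the wild-type median, and the log2 difference was 0.41 ± 0.21 (unadjusted p = 0.0686, adjusted p = 0.187). It was 0.07 with the length trend removed. Slc38a2 ranged from 269 to 554 CPM in null tumors (median 378) and from 269 to 545 CPM in wild-type tumors (median 473). Here 2 of the 9 null tumors lay above the wild-type median, and the log2 difference was -0.16 ± 0.18 (adjusted p = 0.58), or -0.34 ± 0.15 with the length trend removed (adjusted p = 0.127).

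Slc1a4 and Slc1a5 encode ASCT1 and ASCT2, exchangers of serine, alanine and, for ASCT2, glutamine. Slc1a4 ranged from 29.6 to 91.2 CPM in null tumors (median 47.7) and from 18.1 to 73.4 CPM in wild-type tumors (median 57.5), with a log2 difference of 0.14 ± 0.29 (adjusted p = 0.773). Slc1a5 ranged from 62.0 to 217 CPM in null tumors (median 138) and from 66.0 to 173 CPM in wild-type tumors (median 130.0), with a log2 difference of 0.23 ± 0.27 (adjusted p = 0.584). Coefficients of variation were 42.7% (null) and 34.9% (wild-type) for Slc1a4, and 41.7% (null) and 31.6% (wild-type) for Slc1a5, set side by side without a test. In Slc1a5, 4 null tumors lay above every wild-type tumor and 1 below every one.

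Slc6a9, the glycine carrier GlyT1, ranged from 15.5 to 50.1 CPM in null tumors (median 36.9) and from 18.0 to 70.9 CPM in wild-type tumors (median 30.6). The log2 difference was 0.01 ± 0.28 (adjusted p = 0.978), the smallest of the 10 in size. Its exons share 27.8% of their bases with Ccdc24 on the opposite strand in the GENCODE M21 annotation, and the strand setting of the counts is not given in the sources used here, so its level is uncertain.

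Per kilobase of annotated exon, Slc38a2 was the highest of the 10, at 44.2 ± 9.96 CPM per kb in null and 49.2 ± 11.4 CPM per kb in wild-type tumors (SD, n = 9 and 7). By the mean over all 16 tumors Slc3a2, Slc1a5, Slc7a5, Slc38a1, Slc7a6, Slc1a4, Slc7a1 and Slc6a9 followed, but neither group kept that order. In null tumors Slc7a5 was above Slc1a5 (33.0 ± 13.8 CPM per kb), and in wild-type tumors Slc1a5 (28.1 ± 8.88 CPM per kb) was above Slc3a2, and Slc7a5 below Slc38a1 (18.3 ± 5.57 CPM per kb) and Slc7a6 (17.8 ± 5.37 CPM per kb). Slc7a11 was last, at 0.430 ± 0.184 CPM per kb in null and 0.506 ± 0.245 CPM per kb in wild-type tumors. Slc7a11 was below Slc6a9 in 9 of 9 null and 7 of 7 wild-type tumors, while each other pair of neighbours in the pooled order changed places in at least 1 tumor. Slc7a5 stood at 34.1 ± 10.4 CPM per kb in null tumors, close to Slc3a2 at 36.2 ± 7.42 CPM per kb, and at 16.4 ± 11.3 CPM per kb in wild-type tumors, where Slc3a2 was at 27.4 ± 9.04 CPM per kb. Lengths are unions of exons in GENCODE M21, which may differ from the annotation used for counting.

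Among 44 other amino acid transporter genes, 35 were tested, and 7 rose, 2 fell and 26 did not pass (25.7% called, against 16% of all tested genes). The median log2 difference of the list was 0.27, against -0.03 over all tested genes. Of those that rose, Slc36a4, a proton-coupled carrier (PAT4), had the smallest p. It measured 28.6 ± 10.3 CPM in null and 8.78 ± 6.02 CPM in wild-type tumors (SD, n = 9 and 7), a log2 difference of 1.70 ± 0.37 (adjusted p = 0.00915). Slc36a1, the related PAT1 that exports amino acids from lysosomes, measured 215 ± 54.6 CPM in null and 105 ± 44.3 CPM in wild-type tumors (log2 difference 1.03 ± 0.24, adjusted p = 0.011). Slc38a10, a relative of the SNAT carriers, rose by 0.50 ± 0.13 on the log2 scale (adjusted p = 0.0216). Slc7a8, the LAT2 light chain that also pairs with Slc3a2, rose by 1.24 ± 0.33 (adjusted p = 0.0221) at a low level, 9.47 ± 4.91 CPM in null and 4.0 ± 1.07 CPM in wild-type tumors. Slc6a18, a neutral amino acid carrier known from the kidney, fell by 0.92 ± 0.25 (adjusted p = 0.0238), at 1.98 to 4.39 CPM in null and 3.36 to 9.27 CPM in wild-type tumors, and was not called with no filter on low counts (adjusted p = 0.0506).

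The other calls of that list were named after their values were seen. Slc43a2 (LAT4, log2 difference 1.15 ± 0.33), Slc1a1 (a glutamate carrier, 1.18 ± 0.36) and Slc6a6 (a taurine carrier, 0.71 ± 0.23) rose. Slc38a6, a relative of the SNAT carriers, fell by 0.73 ± 0.20. Its groups did not overlap, but only narrowly, with null tumors up to 13.4 CPM and wild-type tumors from 13.5 CPM. Slc1a1 shares 31.9% of its exon bases with a counted gene model on the opposite strand and is uncertain. These were not all firm. Slc43a2 (1.03) and Slc38a6 (-0.65) lost their call without wild-type tumor 7, where 5 genes of the list were called in place of 9, and Slc1a1 and Slc6a6 lost theirs in 9 and 12 of the 16 fits without 1 tumor. With the length trend removed, 4 genes of the list rose and 3 fell, as Slc43a2 (0.90, adjusted p = 0.0576), Slc1a1 (adjusted p = 0.0677) and Slc6a6 (0.54, adjusted p = 0.0805) were not called and Slc38a9 fell. With wild-type tumors 2, 4 and 7 left out, none of the 36 tested genes of the list passed, with Slc36a4 at 1.20 (adjusted p = 0.0769) and Slc36a1 at 0.92 (adjusted p = 0.123). In that fit 8 of the 36 were higher and 3 lower at an unadjusted p under 0.05. Over all 15276 genes tested there, 1450 were higher and 1547 lower at the same cutoff.

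**Figure D4:**
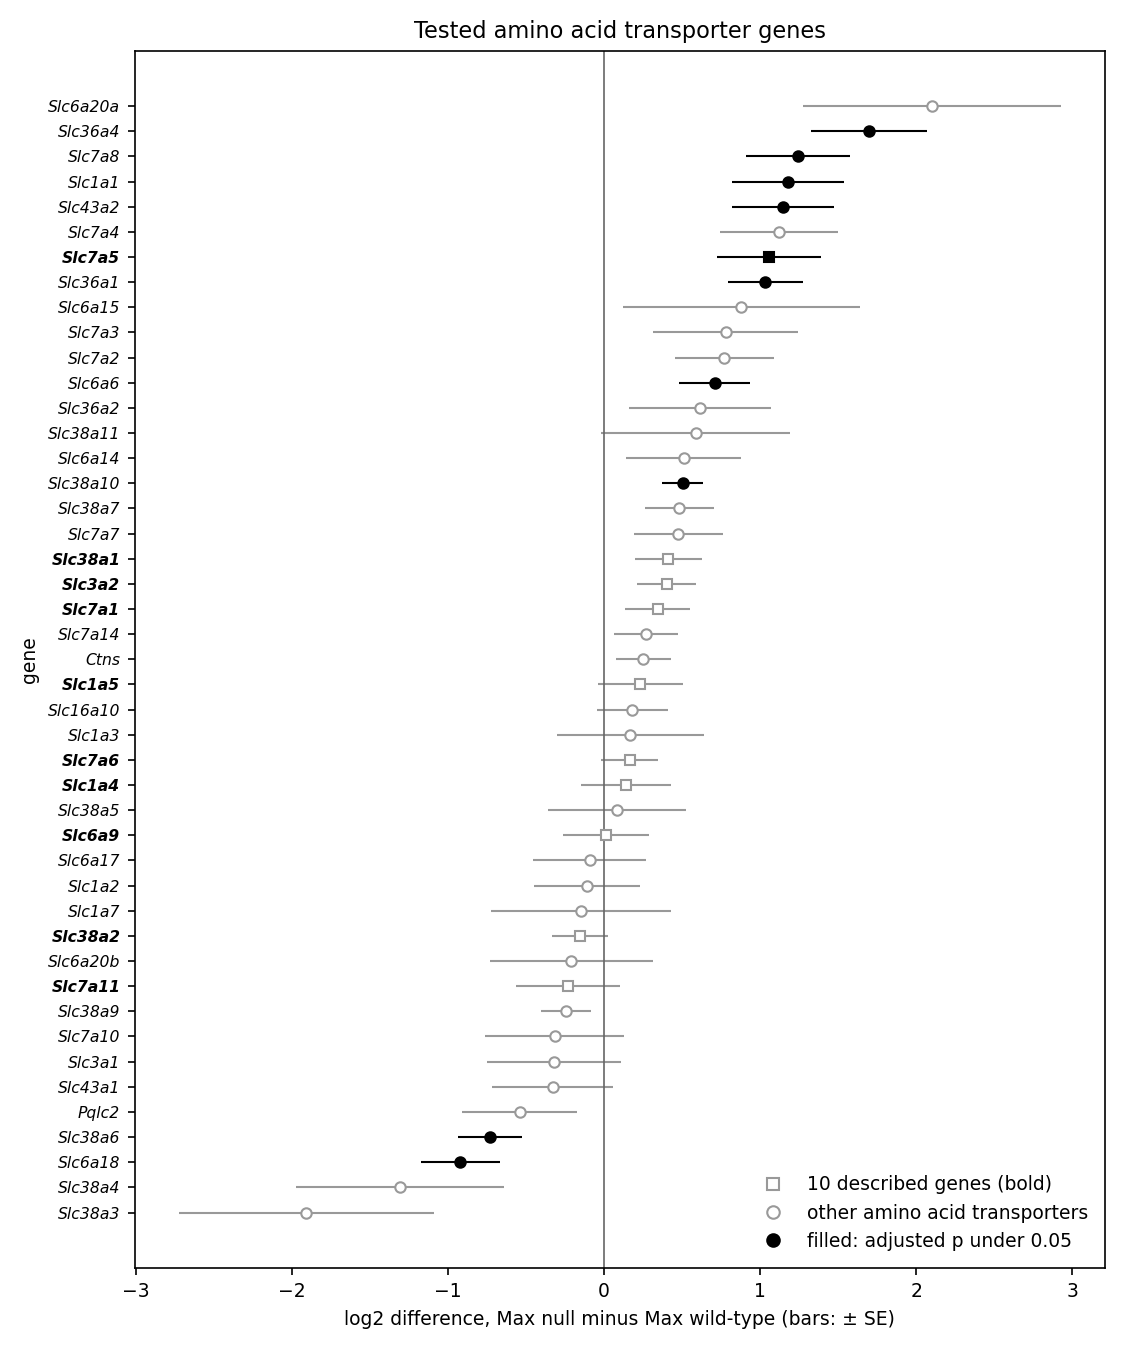
Fitted log2 difference (x axis, Max null minus Max wild-type, bars ± SE) of the 45 tested amino acid transporter genes, with the 10 described genes in bold as squares, others as circles, and filled symbols where the adjusted p is under 0.05. Slc7a5 at 1.06 stands among the called genes that rose, next to Slc36a1 at 1.03, and the other 9 squares lie between -0.23 and 0.41.

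A wider list held 40 genes of amino acid sensing and of the ATF4 and mTORC1 pathways, not all of them sensors. Of these, 3 rose, 5 fell and 32 did not pass (20% called, against 16% of all tested genes). The list median was 0.00 on the log2 scale. The balance depended on the method, with 7 higher and 4 lower by limma-voom, 1 higher and 5 lower with no filter on low counts, and 3 higher and 3 lower with the length trend removed. Atf4 fell by 0.72 ± 0.18 on the log2 scale (edgeR adjusted p = 0.0163). It ranged from 163 to 242 CPM in null tumors and from 251 to 584 CPM in wild-type tumors, so the groups did not overlap. Wild-type tumor 6 held the highest value, the other wild-type tumors lying at or below 299 CPM. Without that tumor Atf4 fell by 0.49 and was still called (edgeR adjusted p = 0.0201). It fell by 0.56 with the transcript length trend removed, which was not called (adjusted p = 0.0634). Ddit3 (CHOP), a factor downstream of ATF4, fell by 1.30 ± 0.27 (17.3 ± 5.91 CPM in null and 42.8 ± 19.6 CPM in wild-type tumors, adjusted p = 0.00672). Asns, asparagine synthetase and another target of ATF4, did not pass (-0.31 ± 0.26, adjusted p = 0.439), nor did Trib3 (-0.92 ± 0.45, adjusted p = 0.169), both named after their values were seen.

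Among the parts of the lysosomal switch that turns amino acids into mTORC1 activity, calls went both ways. Rragb, a Rag GTPase, rose by 1.25 ± 0.28 (62.7 ± 26.9 CPM in null and 26.3 ± 9.42 CPM in wild-type tumors, adjusted p = 0.0105). Rragc, a Rag GTPase of the other class, fell by 1.03 ± 0.25 (adjusted p = 0.0137), or by 0.64 without wild-type tumor 7, where it was still called. Nprl2, part of the GATOR1 inhibitor, fell by 0.63 ± 0.16 (adjusted p = 0.0162), and by 0.39 with the length trend removed, which was not called (adjusted p = 0.0791). The remaining calls, named after their values were seen, were Sesn2, an amino acid sensor, and Rptor, the scaffold of mTORC1, which rose by 0.72 ± 0.24 and 0.54 ± 0.18, and Lamtor1, listed in the files as 2400001E08Rik, which fell by 0.64 ± 0.18. Sesn2 and Rptor lost their calls in 13 and 15 of the 16 fits without 1 tumor. Lamtor1 was not called by limma-voom. It shares 18.7% of its exon bases with Lrrc51, a counted gene on the opposite strand, so its level is uncertain. Without wild-type tumors 2, 4 and 7, Atf4 (-0.87, adjusted p = 0.0444) was called and the other 39 genes of the list were not.

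**Figure D5:**
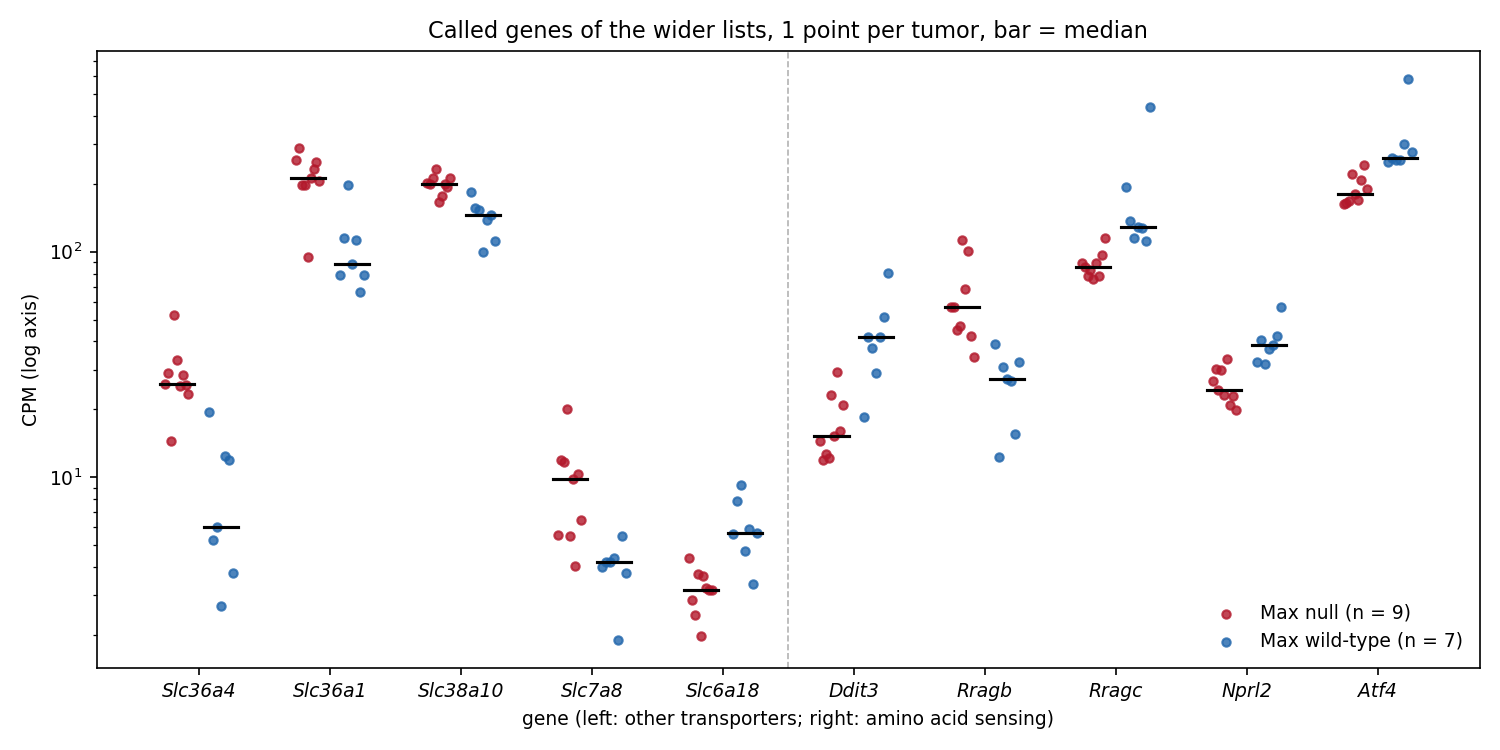
CPM (log axis) of 5 called transporter genes outside the 10 (left of the dashed line) and 5 called genes of the amino acid sensing list (right), with 1 point per tumor, Max null in red (n = 9) left of Max wild-type in blue (n = 7), and bars at the median. All null points of Atf4 lie below its lowest wild-type point, at 251 CPM, while the points of Slc36a4, Slc36a1 and Rragb overlap between groups.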

How the data were processed

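Each of the 16 tumors has 1 table of counts, deposited by the authors as whole numbers of reads per gene symbol with no normalization. Tools listed in the submitters' processing notes are HTSeq 0.6.1, TopHat, TopHat2 2.0.12 and bcl2fastq 1.8.4, with build mm9; which annotation and strand setting were used is not given in the sources used here. The 5 closing HTSeq totals (29.2% to 32.9% of a null and 32.8% to 45.6% of a wild-type table) stayed out of library sizes. Multiply aligned reads enter no gene.

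Counts were tested with edgeR 4.0.16 (R 4.3.3): TMM factors, filterByExpr, quasi-likelihood F test of Max null minus Max wild-type over 14825 genes, Benjamini-Hochberg adjustment, threshold 0.05; SE is the log2 difference over the square root of F. The scripts were checked on simulated data. DESeq2 1.42.0 and limma 3.58.1 were alternatives. Log2 CPM used a prior count of 2; ratios had 0.5 added to each count. The transporter and sensing lists, the members and the tests were chosen with earlier results of these data known. From each wider list the rule names up to 5 called genes of smallest p; the remaining called genes, Asns, Trib3 and Slc38a9 were named after their values were seen. Tumor numbers 1 to 7 occur in both groups, and same-numbered tumors deviated from their group means with correlations of -0.17 to 0.24. Null tumor 3 alone was most like the wild-type tumor of its own number. No pairing by number was detected, which does not show that there is none. In the per-length lengths, 98.9% of tested genes had a value.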

Additional observations from a re-analysis of the deposited data

Results flagged for a closer look

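In 26 sets of values (10 genes and 3 ratios in each group), 5 had an extreme tumor set apart from the rest of its group. The rule is set to flag about 1 set in 20 by chance. The sets share tumors and are not independent, and gene values were CPM without a log, so the count of 5 cannot be weighed against that rate. Max null tumor 5 was far above the other null tumors in Slc7a5 (210 CPM), Slc3a2 (185 CPM) and Slc7a6 (130 CPM). Without it the log2 differences were 0.93 for Slc7a5 (edgeR adjusted p = 0.0551), 0.32 for Slc3a2 (adjusted p = 0.225) and 0.084 for Slc7a6 (adjusted p = 0.765). Max wild-type tumor 1 was far above the other wild-type tumors in Slc7a1 (158 CPM). Max null tumor 3 was far below the other null tumors in the log2 ratio of Slc7a5 to Slc3a2 (-0.64).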

How the results depend on the processing

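With other scalings (RLE, upper quartile), DESeq2, limma-voom, no filter, a stricter filter (5 CPM in 7 tumors) or the transcript length trend removed, Slc7a5 was called higher. Over all genes, 256 were called without wild-type tumors 2, 4 and 7, 318 with the tumor number as a replicate block and 10 with the share of multiply aligned reads as covariate (8 higher, 2 lower), and 1471 to 3033 without 1 tumor. At an unadjusted p under 0.05 these 3 fits had 1450 higher and 1547 lower, 1930 and 1697, and 931 and 1088 over all 15276, 14825 and 14825 tested genes. Of the 10 genes, 0 were called in each of these 3 fits (1 higher and 0 lower, 2 and 0, and 1 and 1 at an unadjusted p under 0.05), and 0 to 2 without 1 tumor. Of the other transporters 0, 1 and 0 were called (5 to 11 without 1 tumor; the covariate fit had 2 higher and 2 lower unadjusted), and of the sensing genes 1, 2 and 0 (6 to 10; 2 higher and 4 lower unadjusted). Slc7a5 was 1.36 with the block (adjusted p = 0.0618). The difference in the Slc7a5 ratio was 0.56 without those 3 tumors, 0.82 with the block (not called) and 0.63 to 1.04 without 1 tumor. Without 1 tumor, r of Slc7a5 with Slc3a2 in null tumors ranged from 0.54 to 0.96, and of Slc7a11 with Slc3a2 in wild-type tumors from -0.074 to 0.93. Signs turned for genes not called: Slc7a11 was 0.13 with voom, 0.39 with the covariate and 0.17 without the 3 tumors (-0.35 to 0.013 without 1 tumor); Slc7a6 was -0.11 and -0.052 with the covariate and without the 3 tumors; Slc1a4 was -0.10 with the block (-0.0073 to 0.25 without 1 tumor); Slc6a9 was -8.42e-05 with the stricter filter, -0.067 with the length trend removed and -0.0084 with upper-quartile factors (-0.10 to 0.26 without 1 tumor). The causes were not tested.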
